A study of Mus musculus with 12 samples.

Results

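The genes described here are 9 genes that set whether blood clots at the vessel wall and how fast a clot is dissolved: Vwf, F3, F8, Thbd, Procr, Tfpi, Plat, Plau and Plaur. They were chosen by name, as coagulation and fibrinolysis genes made by vessels, with earlier results of these data known. All 9 were found among the 55291 gene symbols counted. Of the 9, 8 entered the tests, since Plau had too few counts to pass the filter on low counts. The 12 RNA-seq libraries form 4 groups of 3. The BM-AML and Lung-AML libraries carry the cell label Vecad+, for endothelial cells that bear VE-cadherin, and come from bone marrow and lung of VECadCre-tdTomato mice that had received a transplant of Trp53(R172H/delta) acute myeloid leukaemia (AML) cells. The BM-Ctrl and Lung-Ctrl libraries carry the same cell label from normal VECadCre-tdTomato mice, which had no transplant. All 12 therefore share the VECadCre-tdTomato background, named for Cre from the VE-cadherin gene and a red fluorescent reporter. The labels give no age, no time after transplantation and no number of mice behind a library, so p-values measure the spread between these libraries, which may be technical.

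Clotting starts when tissue factor, encoded by F3, binds factor VII outside or on the vessel wall. Factor VIII (F8), carried in plasma by von Willebrand factor (Vwf), then speeds the formation of thrombin, and von Willebrand factor also tethers platelets. Resting endothelium opposes this with tissue factor pathway inhibitor (Tfpi), with thrombomodulin (Thbd), which turns thrombin into an activator of protein C, and with the endothelial protein C receptor (Procr). Fibrin is dissolved by plasmin, which tissue plasminogen activator (Plat) and urokinase (Plau), which its receptor (Plaur) holds at the cell, release from plasminogen.

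The libraries held 12.8 to 39.2 M counts each (M for 1e+06), and no pair had identical values. Levels below are counts per 1e+06 library counts (CPM) after scaling by edgeR's TMM factors. The endothelial label was checked against 20 pan-endothelial genes, whose summed level was 176 to 251 CPM in BM-AML and 207 to 290 CPM in BM-Ctrl libraries, and 397 to 1213 CPM in Lung-AML and 3051 to 9714 CPM in Lung-Ctrl libraries. That is 0.0220 to 0.0290% of the counts in BM-AML, 0.0205 to 0.0271% in BM-Ctrl, 0.0367 to 0.105% in Lung-AML and 0.291 to 0.930% in Lung-Ctrl libraries. Markers of lung epithelium in lung and of marrow stroma in marrow were far more abundant. Sums for other cell types lay above or below the endothelial sum, depending on list and group. In lung 10 monocyte and macrophage genes summed to 27775 to 34216 CPM in Lung-AML and 27619 to 32431 CPM in Lung-Ctrl libraries. In BM-Ctrl libraries 10 erythroid genes summed to 19838 to 20958 CPM, above the marrow stromal genes there. The summed level of 10 lung epithelial genes was 219265 to 257614 CPM in Lung-AML and 156588 to 198541 CPM in Lung-Ctrl libraries. Of 10 marrow stromal and osteolineage genes it was 4841 to 7854 CPM in BM-AML and 9642 to 12213 CPM in BM-Ctrl libraries. The 20 endothelial genes thus made up at most 0.930% of the counts of a library, a share that does not measure the share of endothelial cells. In such bulk samples fewer cells of a type and less RNA per cell cannot be told apart.

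Between BM-AML and BM-Ctrl libraries, 5 of the 8 tested genes passed edgeR's quasi-likelihood test at an adjusted p under 0.05. F3, Procr and Plat were higher in BM-AML libraries, and Vwf and F8 were lower. The median log2 fold change of the 8 was 0.79, against -0.11 over all 18147 genes tested. Across all those genes 43.8% passed in this comparison, 20.4% higher and 23.5% lower, so the share of members that passed is read against a high background. Between Lung-AML and Lung-Ctrl libraries, where 2.33% of all genes passed (1.17% higher and 1.16% lower), 1 member passed: Thbd, which was lower in Lung-AML libraries. The 8 had a median log2 fold change of -0.79 there, against 0.00 over all genes.

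**Figure D1:**
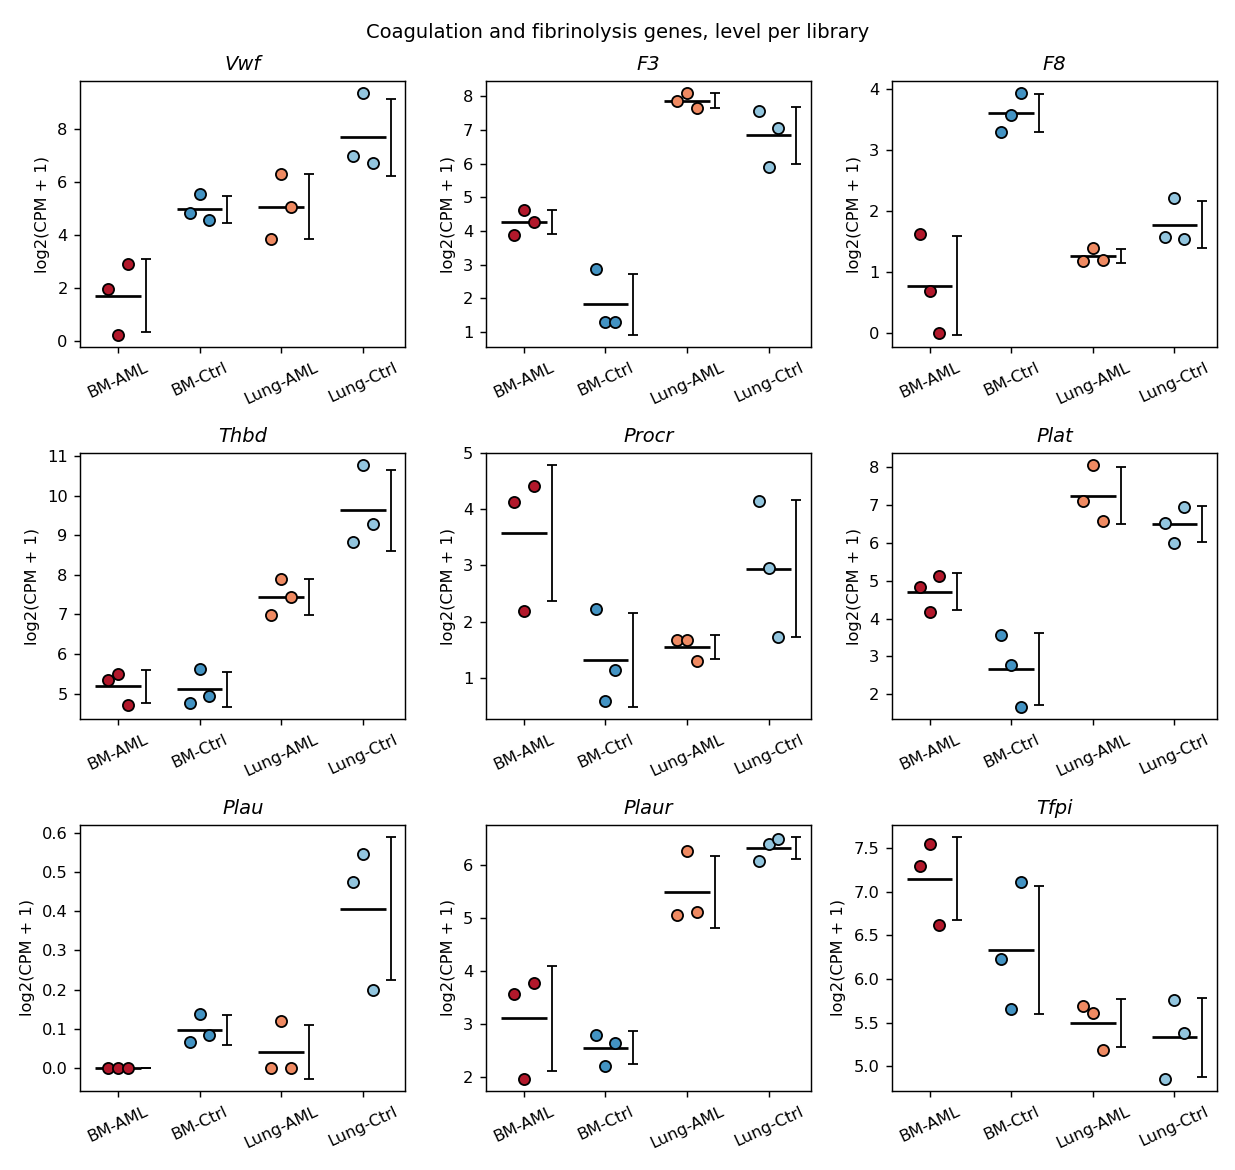
Level of each of the 9 genes (TMM-scaled CPM, log2 axis after adding 1) in the 12 libraries, with AML left of Ctrl for each organ. Points are libraries, lines are group means and bars are SDs (n = 3). Vwf, F3, F8, Plat and Plau do not overlap between BM-AML and BM-Ctrl libraries, though Plau had only 0 to 2 counts in each. Vwf, F3, F8, Thbd, Procr and Plau do not overlap between Lung-AML and Lung-Ctrl libraries, and of these only Thbd passed the test. The share of all genes without overlap was not counted.

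Tissue factor is the trigger of clotting in blood that leaves a vessel, and its gene is normally more active in cells around vessels and in epithelia than in resting endothelium. F3 (chromosome 3, 121723537 to 121735048, plus strand, GRCm38) stood at 13.8, 23.4 and 18.4 CPM in the 3 BM-AML libraries, against 6.33, 1.46 and 1.44 CPM in the BM-Ctrl libraries. All 3 BM-AML libraries were above all 3 BM-Ctrl libraries. The log2 fold change was 2.58 ± 0.57 (SE, n = 3 each, edgeR adjusted p = 0.00388), and it was 3.68 without BM-Ctrl replicate 1, the highest of the BM-Ctrl libraries. In lung the gene stood at 232, 272 and 200.4 CPM in Lung-AML libraries, against 187, 58.9 and 131 CPM in Lung-Ctrl libraries. Here too the groups did not overlap, but the log2 fold change of 0.90 ± 0.52 did not pass the test (n = 3 each, edgeR adjusted p = 0.455). With limma-voom and sample quality weights it did, at a log2 fold change of 1.02 (adjusted p = 0.0315). The marrow change exceeded the lung change by 1.67 ± 0.76 on the log2 scale, which did not pass the test of the difference itself (n = 3 a group, edgeR adjusted p = 0.119), but did without BM-Ctrl replicate 1 (2.77, adjusted p = 0.00771).

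RefSeq promoter windows (GRCm38.p6) matched 5 of the 9 genes: F3, F8, Procr, Plaur and Tfpi. Of these, F3 and Procr rose and F8 fell in BM-AML libraries, while Plaur and Tfpi did not pass there. The stretches before the annotated start, outside annotated exons, are shown for 4 of them. F8 is left out, as too little of its window lay outside annotated exons. All 4 stretches are written 5′ to 3′ on the gene's strand, F3 from chr3:121723287-121723536 (plus), Procr from chr2:155750967-155751116 (plus), Plaur from chr7:24462233-24462482 (plus) and Tfpi from chr2:84476776-84477009 (minus). Capitals mark matches on either strand to the letters TATAAA, to the Sp1 box GGGCGG, to the AP-1 site TGANTCA and to AGATAA. They also mark the pattern read by NF-kappaB, which is GGGA, then any 4 bases, then CC.
F3: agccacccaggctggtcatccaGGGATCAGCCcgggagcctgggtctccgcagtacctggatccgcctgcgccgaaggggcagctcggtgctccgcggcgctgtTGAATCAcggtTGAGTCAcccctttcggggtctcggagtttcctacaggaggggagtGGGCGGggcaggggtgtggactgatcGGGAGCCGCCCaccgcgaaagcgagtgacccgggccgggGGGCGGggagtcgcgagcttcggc
Procr: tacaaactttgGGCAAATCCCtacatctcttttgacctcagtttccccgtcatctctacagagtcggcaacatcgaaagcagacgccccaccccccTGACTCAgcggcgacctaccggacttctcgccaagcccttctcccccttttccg
Plaur: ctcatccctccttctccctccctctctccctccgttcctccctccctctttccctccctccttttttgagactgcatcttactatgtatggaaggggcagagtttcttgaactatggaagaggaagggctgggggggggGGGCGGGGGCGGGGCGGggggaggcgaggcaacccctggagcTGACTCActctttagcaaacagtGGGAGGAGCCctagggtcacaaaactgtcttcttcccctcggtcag
Tfpi: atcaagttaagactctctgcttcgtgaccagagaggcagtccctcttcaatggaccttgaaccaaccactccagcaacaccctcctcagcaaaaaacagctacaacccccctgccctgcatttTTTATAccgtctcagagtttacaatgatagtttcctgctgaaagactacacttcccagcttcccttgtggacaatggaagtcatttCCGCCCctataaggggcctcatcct
The AP-1 letters occurred in F3, at 146 and 135 bases before the RefSeq start, in Procr, at 154 bases, and in Plaur, at 69 bases. They occurred in neither the window shown for Tfpi nor that of its other annotated start. The NF-kappaB letters also occurred in F3, Procr and Plaur and in neither Tfpi window. In F3 the match at 63 bases before the start overlaps an Sp1 match, and in Plaur neighbouring Sp1 matches overlap each other. Of 32851 RefSeq windows cut to the same 250 bases, 6.75% held the AP-1 letters, 17.6% the NF-kappaB letters and 32.7% the Sp1 letters. For the 150 bases of Procr the shares were 4.0% for AP-1 and 9.84% for NF-kappaB. These matches describe the letters and say nothing about binding.

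Vwf encodes the large multimer that tethers platelets to the injured wall, and it is made almost only by endothelial cells and megakaryocytes. Vwf (chromosome 6, 125546774 to 125686679, plus strand) stood at 2.91, 0.153 and 6.53 CPM in BM-AML libraries, against 27.0, 45.0 and 22.3 CPM in BM-Ctrl libraries. All BM-AML libraries were below all BM-Ctrl libraries, and BM-AML replicate 2 lay far below the others. The log2 fold change was -3.28 ± 1.06 (n = 3 each, edgeR adjusted p = 0.0267). It no longer passed without BM-AML replicate 1 (-3.22, adjusted p = 0.0650), without BM-Ctrl replicate 2 (-2.94, adjusted p = 0.0720), with no filter on low counts (adjusted p = 0.102) or with limma-voom (adjusted p = 0.305), and it was -4.49 without BM-AML replicate 3. The lung values were 13.2, 76.8 and 31.6 CPM in Lung-AML libraries, against 126, 646 and 102 CPM in Lung-Ctrl libraries. The groups did not overlap and Lung-Ctrl replicate 2 was the highest, but the log2 fold change of -2.85 ± 1.01 did not pass (n = 3 each, edgeR adjusted p = 0.177). It passed with DESeq2 (-2.84, adjusted p = 0.0327) and with limma-voom (-2.52, adjusted p = 0.0262). The marrow and lung changes differed by -0.44 ± 1.36 (n = 3 a group, edgeR adjusted p = 0.849).

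F8 encodes the cofactor that travels bound to von Willebrand factor and is made mainly by endothelium. F8 (X chromosome, 75172715 to 75382615, minus strand) stood at 2.07, 0.611 and 0 CPM in BM-AML libraries, against 8.84, 11 and 14.3 CPM in BM-Ctrl libraries. The groups did not overlap, and BM-AML replicate 3 had no count, which allows up to 0.105 CPM. The log2 fold change was -3.70 ± 1.07 (n = 3 each, edgeR adjusted p = 0.0159). It was -5.20 without BM-AML replicate 1 and -3.10 without BM-AML replicate 3, and a fit of the marrow libraries alone did not call it (-3.57, adjusted p = 0.0634). In lung the level was low throughout, at 1.27, 1.63 and 1.29 CPM in Lung-AML libraries, against 1.96, 3.65 and 1.89 CPM in Lung-Ctrl libraries. All Lung-AML libraries were lower, yet the log2 fold change of -0.84 ± 0.97 did not pass (n = 3 each, edgeR adjusted p = 0.792). The difference of the changes, marrow minus lung, was -2.87 ± 1.39 (n = 3 a group, edgeR adjusted p = 0.146); it passed without BM-AML replicate 1 (-4.37, adjusted p = 0.0246), without BM-AML replicate 3 (-2.26, adjusted p = 0.0425) and with limma-voom (-3.74, adjusted p = 0.0271).

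Since Vwf and F8 come mostly from endothelium, both were also set against the summed counts of the 20 pan-endothelial genes in the same library. Per 1000 such counts, Vwf had 12.7, 0.866 and 26.0 in BM-AML libraries, against 130, 155 and 80.8 in BM-Ctrl libraries, a log2 difference of -4.10 (two-sided exact permutation p = 0.1, the smallest that 3 against 3 allows). F8 differed by -5.06 on the same scale in marrow (exact permutation p = 0.1). The sum itself differed by -0.24 between BM-AML and BM-Ctrl libraries, but single endothelial genes did not move alike. Cdh5, the gene of VE-cadherin, had a log2 fold change of -2.9 ± 0.82, Kdr of -3.56 ± 0.70 and Robo4 of -4.26 ± 0.93, whereas Esam had 1.71 ± 0.50 (n = 3 each, edgeR adjusted p = 0.0141, 0.00186, 0.00363 and 0.0165). Of the 20 genes 8 fell, 1 rose and 11 did not pass, with a median log2 fold change of -1.75. Among those that did not pass were Tie1 (-0.07) and Egfl7 (0.84). The changes of Cdh5, Kdr and Robo4 were of the size of those of Vwf and F8, while those of many other endothelial genes were smaller. The part of these genes in the values per endothelial count was not tested. In lung Vwf had 33.3, 63.4 and 53.4 per 1000 in Lung-AML libraries, against 41.2, 66.5 and 24.4 in Lung-Ctrl libraries. These overlapped, with a log2 difference of 0.25 (exact permutation p = 0.7), while the endothelial sum itself was lower in every Lung-AML library.

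Thrombomodulin is the endothelial thrombin receptor that diverts thrombin from fibrin to protein C. Thbd (chromosome 2, 148404466 to 148408188, minus strand, with 1 exon) stood at 126, 235 and 173 CPM in Lung-AML libraries, against 452, 1754 and 625 CPM in Lung-Ctrl libraries. Every Lung-AML library was below every Lung-Ctrl library, and Lung-Ctrl replicate 2 stood far above the other 2. The log2 fold change was -2.41 ± 0.49 (n = 3 each, edgeR adjusted p = 0.0301). The call was lost without Lung-AML replicate 1 (-2.21, adjusted p = 0.151), Lung-AML replicate 2 (-2.59, adjusted p = 0.0569), Lung-AML replicate 3 (-2.39, adjusted p = 0.136) or Lung-Ctrl replicate 2 (-1.60, adjusted p = 0.0764), and with no filter on low counts (-2.40, adjusted p = 0.0510). Beside it, 11 of the 20 pan-endothelial genes fell in Lung-AML libraries and none rose. Per 1000 pan-endothelial counts Thbd had 317, 194 and 292 in Lung-AML libraries, against 148, 181 and 149 in Lung-Ctrl libraries. The log2 difference on that scale was 0.72 (two-sided exact permutation p = 0.1, the smallest possible). It includes the lower endothelial sum of the Lung-AML libraries, a log2 difference of -2.92, which moves every gene alike, so it is no change of Thbd alone.

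In marrow Thbd stood at 39.8, 44.1 and 25.2 CPM in BM-AML libraries, against 26.1, 47.9 and 29.8 CPM in BM-Ctrl libraries. The groups overlapped throughout, with a log2 fold change of 0.07 and a 95% interval of -1.0 to 1.15 (n = 3 each, edgeR adjusted p = 0.924). The marrow change exceeded the lung change by 2.48 ± 0.67 on the log2 scale (n = 3 a group, edgeR adjusted p = 0.0160), and by 1.68 without Lung-Ctrl replicate 2. With limma-voom this difference was 2.28 and did not pass (adjusted p = 0.0666). Of all genes tested, 30.7% passed this test of the difference, 14.6% higher and 16.1% lower. Of the 8 members Thbd and Procr passed, both with the higher change in marrow, and the members' median difference was 1.39, against -0.09 over all genes.

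**Figure D2:**
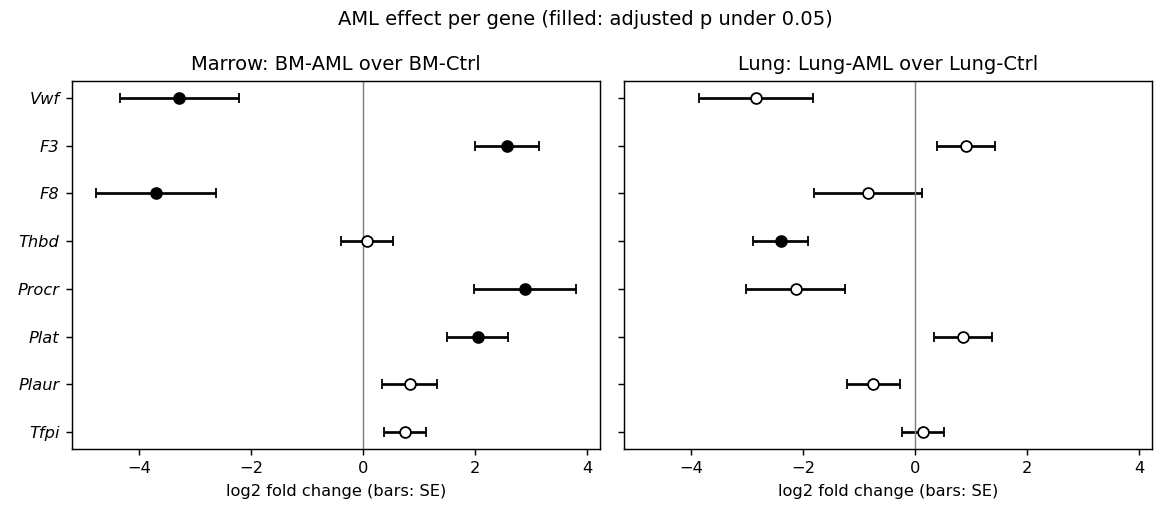
Log2 fold change of AML over Ctrl libraries for the 8 tested genes in marrow (left) and lung (right), from edgeR, with SE bars. Filled points passed at an adjusted p under 0.05: Vwf, F3, F8, Procr and Plat in marrow, Thbd in lung.

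Procr encodes the receptor that presents protein C to the thrombin and thrombomodulin complex. Procr (chromosome 2, 155751117 to 155755471, plus strand) stood at 16.6, 3.55 and 20.2 CPM in BM-AML libraries, against 3.68, 0.502 and 1.20 CPM in BM-Ctrl libraries. BM-AML replicate 2 lay just below BM-Ctrl replicate 1, so the groups overlapped. The log2 fold change was 2.90 ± 0.91 (n = 3 each, edgeR adjusted p = 0.0237). It was lost without BM-AML replicate 3 (2.47, adjusted p = 0.0561), BM-Ctrl replicate 2 (2.45, adjusted p = 0.0777) or BM-Ctrl replicate 3 (2.67, adjusted p = 0.0813), and with limma-voom (2.63, adjusted p = 0.0725), and was 3.99 without BM-Ctrl replicate 1. In lung it stood at 2.21, 2.18 and 1.46 CPM in Lung-AML libraries, against 16.7, 6.80 and 2.29 CPM in Lung-Ctrl libraries. The Lung-AML libraries were all lower, by a narrow gap, and the log2 fold change of -2.14 ± 0.88 did not pass (n = 3 each, edgeR adjusted p = 0.250). The marrow change exceeded the lung change by 5.04 ± 1.27 (n = 3 a group, edgeR adjusted p = 0.0117). That difference passed without each library in turn, at 6.12 without BM-Ctrl replicate 1 and 4.14 without Lung-Ctrl replicate 1.

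Tfpi blocks the complex of tissue factor and factor VII. Tfpi (chromosome 2, 84432855 to 84476775, minus strand) stood at 156, 185 and 97.1 CPM in BM-AML libraries, against 74.3, 49.5 and 137 CPM in BM-Ctrl libraries. BM-Ctrl replicate 3 lay above BM-AML replicate 3, and the log2 fold change of 0.75 ± 0.37 did not pass (n = 3 each, edgeR adjusted p = 0.127). It passed without BM-Ctrl replicate 3 (1.23, adjusted p = 0.0202), with library totals in place of TMM (1.06, adjusted p = 0.0469) and with limma-voom (1.09, adjusted p = 0.0495). In lung the levels were 50.6, 47.9 and 35.3 CPM in Lung-AML libraries, against 28, 53.2 and 40.7 CPM in Lung-Ctrl libraries. These overlapped, with a log2 fold change of 0.13 ± 0.37 (n = 3 each, edgeR adjusted p = 0.944).

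Plat encodes the main plasminogen activator released by endothelium into blood. Plat (chromosome 8, 22757727 to 22782844, plus strand) stood at 27.6, 17.1 and 33.8 CPM in BM-AML libraries, against 10.9, 5.78 and 2.16 CPM in BM-Ctrl libraries. All BM-AML libraries were above all BM-Ctrl libraries. The log2 fold change was 2.05 ± 0.55 (n = 3 each, edgeR adjusted p = 0.0107), and 2.71 without BM-Ctrl replicate 1, but limma-voom did not call it (1.87, adjusted p = 0.219). In lung it stood at 136, 267 and 95.6 CPM in Lung-AML libraries, against 91.0, 63.3 and 123 CPM in Lung-Ctrl libraries. The groups overlapped and the log2 fold change of 0.85 ± 0.52 did not pass (n = 3 each, edgeR adjusted p = 0.492). The changes in marrow and lung differed by 1.20 ± 0.74 (n = 3 a group, edgeR adjusted p = 0.250).

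Plau, the gene of urokinase (chromosome 14, 20836660 to 20843385, plus strand), was close to undetected. It had 0 counts in each of the 3 BM-AML libraries, against 1, 2 and 1 counts in the BM-Ctrl libraries. In lung it had 0, 2 and 0 counts in Lung-AML libraries, against 9, 12 and 4 counts in Lung-Ctrl libraries. All Lung-Ctrl libraries were above all Lung-AML libraries, with a ratio of Lung-Ctrl over Lung-AML of 13.7 and a 95% interval of 3.43 to 120 that covers counting error only. In marrow the totals were 0 counts in BM-AML and 4 in BM-Ctrl libraries, too few to set a fold change.

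Plaur encodes the receptor that holds urokinase on the cell surface and is abundant on myeloid cells. Plaur (chromosome 7, 24462484 to 24475968, plus strand) stood at 10.9, 2.90 and 12.7 CPM in BM-AML libraries, against 5.96, 3.62 and 5.27 CPM in BM-Ctrl libraries. BM-AML replicate 2 lay below all BM-Ctrl libraries and the other 2 above them, with a log2 fold change of 0.83 ± 0.49 (n = 3 each, edgeR adjusted p = 0.195); without BM-AML replicate 2 it was 1.26 and passed (adjusted p = 0.0211). In lung it stood at 32.3, 75.7 and 33.7 CPM in Lung-AML libraries, against 66.6, 83.1 and 88.3 CPM in Lung-Ctrl libraries. The groups overlapped through Lung-AML replicate 2, and the log2 fold change of -0.75 ± 0.48 did not pass (n = 3 each, edgeR adjusted p = 0.517). The difference of the changes was 1.58 ± 0.69 (n = 3 a group, edgeR adjusted p = 0.106), and it passed without BM-AML replicate 2 (2.01, adjusted p = 0.0128) or Lung-AML replicate 2 (2.22, adjusted p = 0.0410) and with library totals in place of TMM (1.97, adjusted p = 0.0454).

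No member was higher in Lung-AML libraries by edgeR's quasi-likelihood test, where 0 members were higher and 3 lower at an unadjusted p under 0.05. At an adjusted p under 0.05 edgeR gave 0 higher and 1 lower, DESeq2 0 higher and 2 lower, and limma-voom 1 higher and 2 lower. Of all 18147 genes, edgeR gave 212 higher and 211 lower, DESeq2 719 and 913, and limma-voom 1007 and 1275. The share of all genes at an unadjusted p was not counted. The summed pan-endothelial counts were themselves lower in Lung-AML libraries, by a mean log2 difference of -2.92, and setting a gene against them moves every gene upward alike in Lung-AML libraries. On this scale, with that shift included, the log2 differences in lung were 3.97 for F3, 3.69 for Plat and 3.09 for Tfpi (two-sided exact permutation p = 0.1 each, the smallest possible). F8 had 2.15 and Plaur 2.07 (exact permutation p = 0.1 each), so F8 was higher here, unlike in marrow. Plau alone was lower, at -0.43 (exact permutation p = 0.5). In marrow, where the ranges of the endothelial sum overlapped between groups, the same measure gave log2 differences of 3.15 for F3, 3.22 for Procr and 2.52 for Plat (exact permutation p = 0.1 each).

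**Figure D3:**
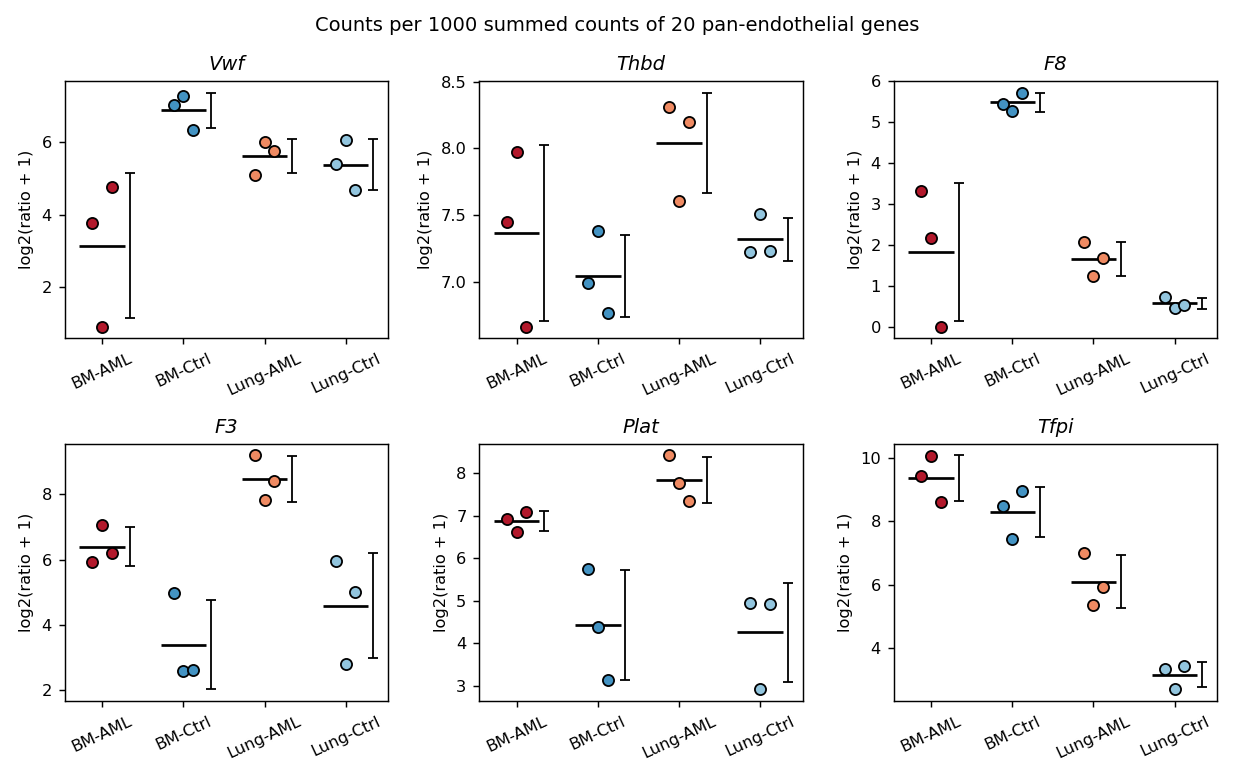
Counts of Vwf, Thbd, F8, F3, Plat and Tfpi per 1000 summed counts of 20 pan-endothelial genes (log2 after adding 1), by library, with group means as lines and SDs as bars (n = 3). Vwf and F8 are lower in all BM-AML than in all BM-Ctrl libraries, while Vwf overlaps between Lung-AML and Lung-Ctrl libraries.

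Markers of other cells moved with the marrow comparison. The summed level of 10 pericyte and smooth muscle genes was 2570 to 9578 CPM in BM-AML libraries, against 206 to 687 CPM in BM-Ctrl libraries, and 9 of the 10 rose. Erythroid genes went the other way, at 881 to 3709 CPM in BM-AML and 19838 to 20958 CPM in BM-Ctrl libraries, with 10 of 10 lower. Pan-leukocyte genes (10) mostly rose, 8 higher and 1 lower, and summed to 186 to 281 CPM in BM-AML and 122 to 163 CPM in BM-Ctrl libraries. Megakaryocytes also make von Willebrand factor, and 11 of their genes summed to 23.0 to 59.6 CPM in BM-AML libraries (Gp1bb at 0) and 63.7 to 83.9 CPM in BM-Ctrl libraries (Gp1bb and Gp6 at 0). Of the 10 megakaryocyte genes tested 2 rose, Itga2b (log2 fold change 3.02) and Gp1ba (2.27), and 1 fell, Gp9 (-4.42), with a median log2 fold change of 1.72, so the sum and the median differ in direction. Of the 20 pan-endothelial genes 1 rose and 8 fell. The part of these cells in the changes of Vwf, F8, F3, Procr and Plat was not tested.

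The other genes of the pathway were taken from lists by role, chosen with earlier results of these data known. Of 49 such genes 39 were tested in marrow, and 16 rose and 3 fell in BM-AML libraries, beside 43.8% of all genes (20.4% higher and 23.5% lower), with a median log2 fold change of 1.08 (1.03 with the 8 genes of a group at or under 3 counts set at their bound) against -0.11 over all genes. Among 9 tested genes of fibrinolysis 8 rose and none fell: S100a10, Anxa2, Plgrkt, Lrp1, Thbs1, Serpine2, Serpini1 and Serpinb2. DESeq2 also gave 8 of the 9 higher and limma-voom 7, beside the 20.4% of all genes that were higher by edgeR. Given how the lists were chosen, this is a description and no test. Serpinf2 of the same list, not tested, had 0 counts in BM-AML and 10 in BM-Ctrl libraries. The 8 genes act on both sides of plasmin formation. S100a10 and Anxa2 form the surface complex that binds plasminogen and its activator, whereas Serpini1 (neuroserpin) and Serpinb2 inhibit the activators.

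S100a10 stood at 197, 182 and 135 CPM in BM-AML libraries, against 27.1, 21.9 and 31.6 CPM in BM-Ctrl libraries (2.67 ± 0.24, n = 3 each, edgeR adjusted p = 2.41e-05). Every BM-AML library was higher. Plgrkt, which encodes a surface receptor for plasminogen, stood at 147, 141 and 95.5 CPM in BM-AML libraries, against 51.4, 60.4 and 76.6 CPM in BM-Ctrl libraries (1.03 ± 0.21, n = 3 each, edgeR adjusted p = 0.00227). The groups did not overlap for this gene either. Anxa2 rose by 2.57 ± 0.29, Serpine2, a protease inhibitor that also acts on thrombin, by 2.43 ± 0.38 and Serpini1 by 2.57 ± 0.45 (n = 3 each, edgeR adjusted p = 8.12e-05, 0.000491 and 0.00100). Serpinb2 had all its 90 marrow counts in 1 of the 3 BM-AML libraries, at 3.44 CPM, which makes the group at least 24.8-fold higher with a floor of 3 counts over the group. Its call (edgeR adjusted p = 0.0443) was lost without that library or any 1 of the BM-Ctrl libraries and with limma-voom (adjusted p = 0.173). It was also lost in edgeR with replicate number added to the model (adjusted p = 0.134).

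Among 7 tested anticoagulants 3 rose and none fell (4 higher with DESeq2 and 3 with limma-voom), beside 20.4% of all genes higher. Pros1, which encodes protein S, the cofactor of activated protein C, stood at 162, 298 and 185 CPM in BM-AML libraries, against 35.0, 27.6 and 44.0 CPM in BM-Ctrl libraries (2.60 ± 0.29, n = 3 each, edgeR adjusted p = 6.88e-05). Every BM-AML library was higher. Anxa5, whose product shields clotting-prone membranes, rose by 2.22 ± 0.26, and Gas6, a relative of protein S, by 1.58 ± 0.24 (n = 3 each, edgeR adjusted p = 9.10e-05 and 0.000467).

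Of 8 tested coagulation factors 1 rose and 1 fell, beside 20.4% of all genes higher and 23.5% lower. Kng1, the gene of kininogen, stood at 344, 771 and 339.6 CPM in BM-AML libraries, against 26.8, 39.2 and 42.0 CPM in BM-Ctrl libraries (3.75 ± 0.43, n = 3 each, edgeR adjusted p = 8.53e-05), while in lung it stayed below 1 CPM. F2, the gene of prothrombin, had 0 counts in BM-AML and 90 in BM-Ctrl libraries, at least 36.3-fold lower with the same floor. In the other lists, Mcfd2 rose and Lman1 fell, the 2 cargo receptors that carry factor VIII out of the endoplasmic reticulum. The call of Lman1 (-0.99) was lost with library totals in place of TMM (-0.66, adjusted p = 0.0759) and in a fit of the marrow libraries alone (-0.84, adjusted p = 0.0808). Of the 4 protease-activated receptors, which thrombin and related proteases cleave, F2r rose by 1.27 ± 0.30 and F2rl3 by 3.85 ± 1.13 (n = 3 each, edgeR adjusted p = 0.00519 and 0.0175). F2rl3 was low, at 0.842 to 8.10 CPM in BM-AML libraries, against 0 to 0.359 CPM in BM-Ctrl libraries. Its call was lost without BM-AML replicate 2 (2.04, adjusted p = 0.0929) and in a fit of the marrow libraries alone (3.97, adjusted p = 0.0717). It was also lost with replicate number added to the model (3.45, adjusted p = 0.0664). DESeq2 called 1 of the 4 receptors, and edgeR 2, beside 20.4% of all genes higher by edgeR. Entpd1, an enzyme that removes the platelet agonist ADP, rose by 3.06 ± 0.55 and by 1.93 without BM-AML replicate 3, and Ptgs1, a prostaglandin synthase, fell by 3.62 ± 0.58 on the log2 scale and by 5.02 without that library (n = 3 each, edgeR adjusted p = 0.00117 and 0.000559).

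**Figure D4:**
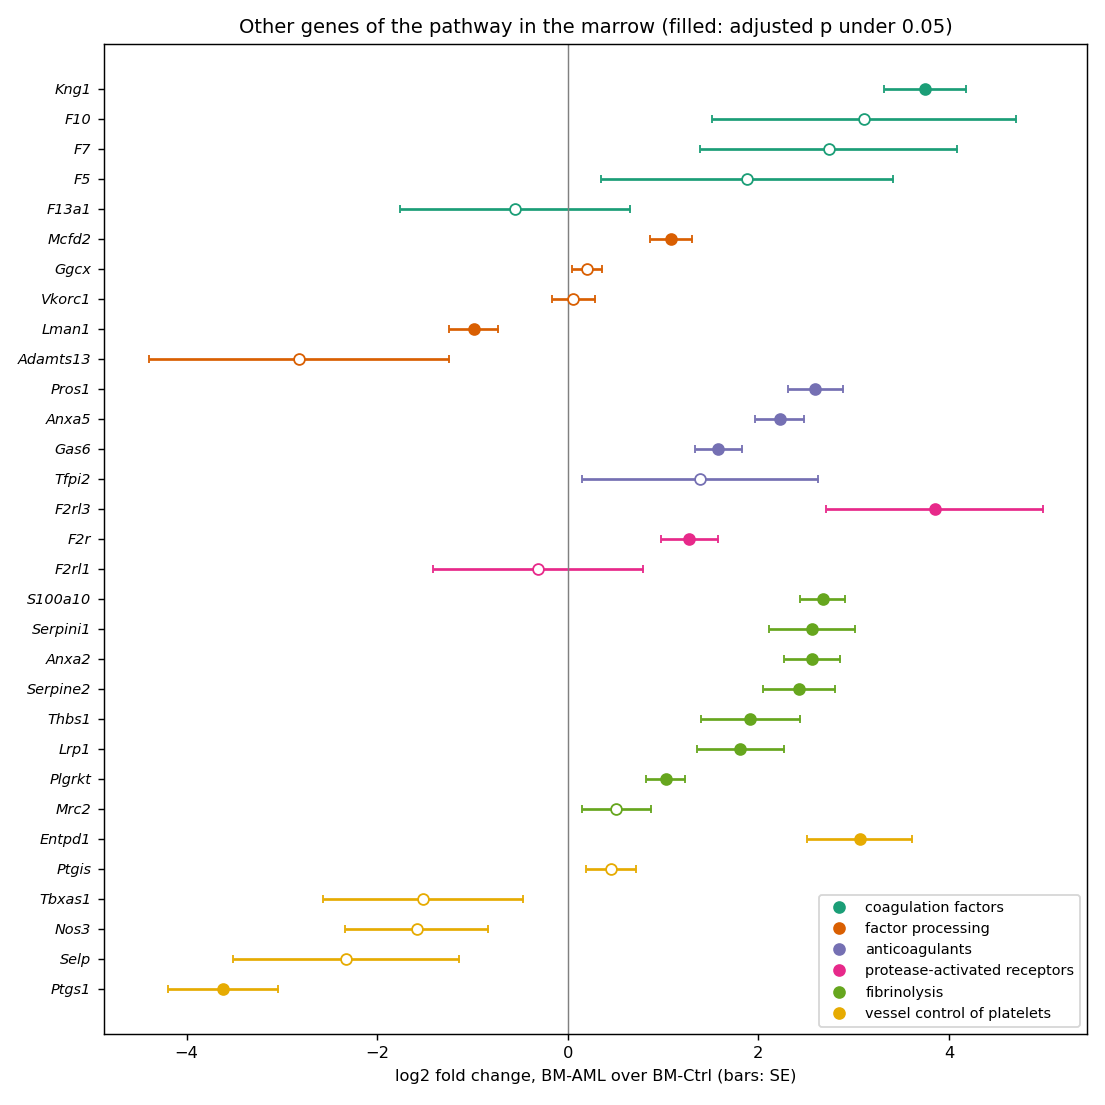
Log2 fold change of BM-AML over BM-Ctrl libraries (edgeR, SE bars) for 31 other genes of the pathway, grouped by role. Filled points passed at an adjusted p under 0.05, and the other 8 tested genes, with a group at or under 3 counts, are not drawn. All 8 fibrinolysis genes drawn lie to the right of 0, and the lowest, Mrc2 (0.51), did not pass.

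In lung 2 of the 39 passed, both higher in Lung-AML libraries, where 2.33% of all genes passed. The median log2 fold change of the 39 was -0.08, against 0.00 over all genes. DESeq2 gave 5 higher and 1 lower, beside 719 and 913 of all 18147 genes. Limma-voom gave 6 higher and 2 lower, beside 1007 and 1275 of all genes. At an unadjusted p under 0.05 edgeR gave 5 higher and 3 lower, where the share of all genes was not counted. Ptgis, which makes the platelet inhibitor prostacyclin, stood at 68.0, 99.1 and 62.6 CPM in Lung-AML libraries, against 23.8, 25.1 and 30.3 CPM in Lung-Ctrl libraries (1.53 ± 0.27, n = 3 each, edgeR adjusted p = 0.0170). F2r stood at 393, 492 and 356 CPM in Lung-AML libraries, against 143, 99.1 and 232 CPM in Lung-Ctrl libraries (1.39 ± 0.29, n = 3 each, edgeR adjusted p = 0.0358). Neither gene's groups overlapped. Both calls depended on the libraries: the Ptgis call was lost without Lung-AML replicate 1 or 2 or Lung-Ctrl replicate 1 or 2 (1.37 to 1.62), and the F2r call without any library but Lung-Ctrl replicate 3 (1.14 to 1.48). The F2r call was also lost in a fit of the lung libraries alone (1.36, edgeR adjusted p = 0.0540). With replicate number added to the model it was lost too (1.43, edgeR adjusted p = 0.0603). Beside Ptgis and F2r, 8 lung fibroblast genes summed to 3247 to 4990 CPM in Lung-AML libraries, against 741 to 2988 CPM in Lung-Ctrl libraries, with 1 of the 8 higher (Pdgfra, 1.92) and a median log2 fold change of 0.99. The part of these cells in the values of Ptgis and F2r was not tested.

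Between the organs the members stood far apart. In BM-AML against Lung-AML libraries, where 47.6% of all genes passed (22.4% higher and 25.2% lower), 2 members were higher in marrow and 5 were lower, with a median log2 fold change of -2.36 against -0.06 over all genes. In BM-Ctrl against Lung-Ctrl libraries 64.2% of all genes passed (29.4% higher and 34.7% lower), and 1 member was higher and 6 lower, with a median of -3.54 against -0.20. These comparisons share libraries with the AML comparisons above. The endothelial sum was also lower in every marrow library than in every lung library. So was that of lung epithelial genes, at 262 to 1591 CPM in BM-AML and 398 to 2520 CPM in BM-Ctrl libraries. Monocyte and macrophage genes summed to 56.1 to 298 CPM in BM-AML and 91.4 to 475 CPM in BM-Ctrl libraries, again below every lung library. Erythroid and marrow stromal sums were higher in marrow. The part of these cells in the differences between organs was not tested.

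F3 had log2 fold changes of -3.66 ± 0.58 in BM-AML against Lung-AML libraries and -5.33 ± 0.63 in BM-Ctrl against Lung-Ctrl libraries (n = 3 each, edgeR adjusted p = 0.000430 and 2.80e-05). The second was -6.45 without BM-Ctrl replicate 1. Thbd had log2 fold changes of -2.29 ± 0.49 in BM-AML against Lung-AML libraries and -4.77 ± 0.54 in BM-Ctrl against Lung-Ctrl libraries (n = 3 each, edgeR adjusted p = 0.00264 and 2.01e-05), the second -3.98 without Lung-Ctrl replicate 2. Both genes were thus lower in marrow with and without AML.

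Plat and Plaur were likewise lower in marrow. Plat had log2 fold changes of -2.67 ± 0.55 in BM-AML against Lung-AML libraries (-2.03 without Lung-AML replicate 2) and -3.87 ± 0.58 in BM-Ctrl against Lung-Ctrl libraries (-4.55 without BM-Ctrl replicate 1; n = 3 each, edgeR adjusted p = 0.00221 and 0.000160). Plaur had -2.42 ± 0.50 in the AML libraries (-1.77 without Lung-AML replicate 2) and -4.00 ± 0.54 in the Ctrl libraries (n = 3 each, edgeR adjusted p = 0.00234 and 7.15e-05). Vwf had -3.65 ± 1.07 and -3.21 ± 1.03 (n = 3 each, edgeR adjusted p = 0.0157 and 0.0175). Its call in the AML libraries was lost without Lung-AML replicate 2 (-2.65, adjusted p = 0.0704) and the value was -4.87 without BM-AML replicate 3. Its call in the Ctrl libraries was lost without BM-Ctrl replicate 1 (-3.13), BM-Ctrl replicate 3 (-3.03) or Lung-Ctrl replicate 2 (-1.88). With no filter on low counts neither passed (-3.72 and -3.33, adjusted p = 0.0600 and 0.0617), and limma-voom did not call the first (-4.91, adjusted p = 0.258).

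Tfpi was the member that went the other way in both comparisons, with log2 fold changes of 1.71 ± 0.38 in BM-AML against Lung-AML libraries and 1.10 ± 0.38 in BM-Ctrl against Lung-Ctrl libraries (n = 3 each, edgeR adjusted p = 0.00355 and 0.0239). The second was lost without BM-Ctrl replicate 3 (0.60), Lung-Ctrl replicate 1 (0.83) or Lung-Ctrl replicate 3 (1.08), with no filter (0.97, adjusted p = 0.0511) and in a fit of the Ctrl libraries alone (1.06, adjusted p = 0.0561). Procr changed sign, at 2.78 ± 0.90 in BM-AML against Lung-AML and -2.25 ± 0.89 in BM-Ctrl against Lung-Ctrl libraries (n = 3 each, edgeR adjusted p = 0.0250 and 0.0438). The first was lost on leaving out each of the 6 libraries but BM-AML replicate 2 (2.34 to 2.99). The second was lost without BM-Ctrl replicate 2 (-1.82), BM-Ctrl replicate 3 (-2.04), Lung-Ctrl replicate 1 (-1.39) or Lung-Ctrl replicate 2 (-2.41), and was -3.36 without BM-Ctrl replicate 1. Limma-voom called neither (2.16 and -1.90, adjusted p = 0.0599 and 0.0812), and a fit of the Ctrl libraries alone did not call the second (-2.31, adjusted p = 0.0523). F8 passed in neither, at -0.68 ± 0.99 in the AML and 2.18 ± 0.99 in the Ctrl libraries (n = 3 each, edgeR adjusted p = 0.600 and 0.0730). In the Ctrl libraries it passed with DESeq2 (2.10, adjusted p = 0.0313), with limma-voom (2.18, adjusted p = 0.00195) and in a fit of those libraries alone (2.13, adjusted p = 0.00272).

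Levels of different genes were compared per kilobase of annotated exon. In BM-AML libraries the order by mean level was Tfpi (26.7 CPM per kb), Thbd (9.78), F3 (7.33), Procr (6.62), Plat (4.19), Plaur (3.37), Vwf (0.199), F8 (0.0903) and Plau (0). The ranges of Tfpi and Thbd, and of Plaur and Vwf, did not overlap, and those of the other neighbours did. In BM-Ctrl libraries Tfpi (15.9 CPM per kb) and Thbd (9.30) also came first, with ranges that overlapped (9.07 to 25.1 for Tfpi and 7.01 to 12.9 for Thbd), then Vwf (1.96), with Procr (0.882) and Plau (0.0291) last.

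In Lung-AML libraries F3 came first at 92.9 CPM per kb, ahead of Thbd at 47.8, with no overlap between their ranges. In Lung-Ctrl libraries Thbd came first at 253 CPM per kb, ahead of F3 at 49.7, again with no overlap. By mean level the inhibitor Tfpi was the first in both marrow groups, the fifth in Lung-AML and the sixth in Lung-Ctrl libraries, at 8.16 and 7.44 CPM per kb.

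**Figure D5:**
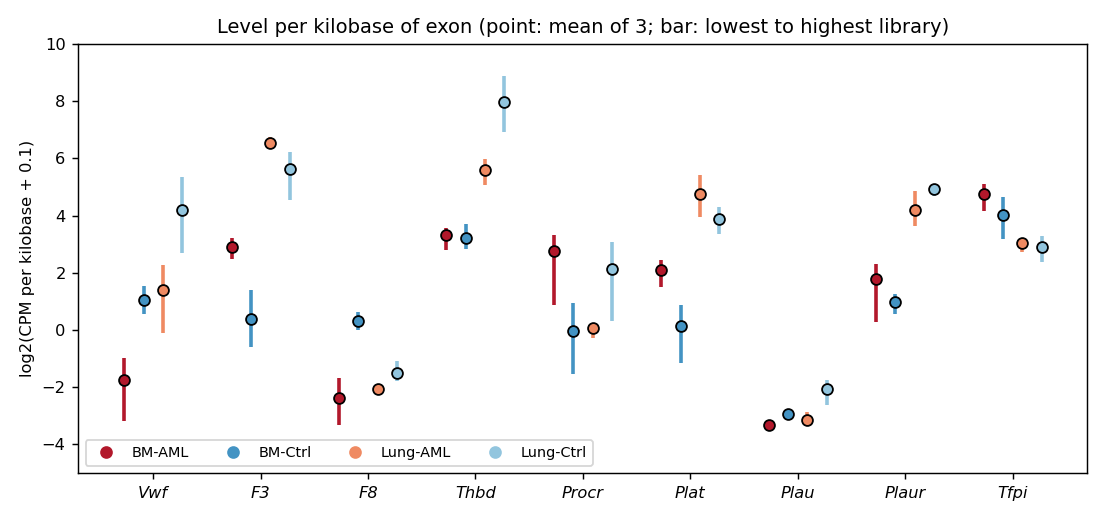
Mean level per kilobase of annotated exon (log2 of CPM per kb plus 0.1) of the members in each group, with AML left of Ctrl for each organ. Points are means of 3 libraries and bars run from the lowest to the highest library. By mean level Tfpi is the highest in the BM-AML and BM-Ctrl libraries, F3 in the Lung-AML and Thbd in the Lung-Ctrl libraries, but the BM-Ctrl ranges of Tfpi and Thbd overlap.

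The genes whose pattern over the 12 libraries was nearest to each member were found among 11344 genes of at least 5 mean CPM, by the root mean square difference of centred log2 CPM. Plaur lay nearest to Rin3 (0.364) and Dusp3 (0.450), and Tfpi to Pusl1 (0.303) and Fkbp10 (0.351). Thbd lay nearest to Tmcc3 (0.468) and Itga6 (0.481), Plat to Fmo5 (0.503) and Slc16a7 (0.508), and F3 to Traf1 (0.651) and Azin2 (0.670). For Procr the nearest were Pcp4l1 (0.409) and Ncs1 (0.607), and for F8 Kbtbd8 (0.481) and Cmpk2 (0.522). Vwf had no gene nearer than 1.02, the value of both Grrp1 and Gbp9, the largest such distance of the 8. The distance was not scaled to a member's own spread, and the SD of log2 CPM was 2.93 for Vwf and 0.886 for Tfpi. These distances describe 12 libraries of 4 groups and carry no test.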

How the data were processed

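Total RNA was taken from Vecad+ cells of bone marrow and lung, and libraries were made with a low-input SMART-seq kit, per the labels' protocols. The deposited values are whole-number read counts per gene symbol, counted without strand by the authors. Reads were aligned with STAR to mm10, per the submitters' processing notes, with the counting tool and annotation not given in the sources used here. Without strand, reads of a gene and an antisense partner cannot be told apart, though the exons of the 9 members overlap no other annotated exon (0 bases).

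All 12 libraries were fitted together with edgeR 4.0.16 in R 4.3.3 (TMM factors 0.865 to 1.25, filterByExpr with a minimum count of 10, quasi-likelihood test, Benjamini-Hochberg adjustment over 18147 genes, adjusted p under 0.05, 8 residual degrees of freedom). SE is the absolute log2 fold change over the square root of F. Differences of the AML changes are interaction terms. Alternatives used DESeq2 1.42.0, limma-voom (limma 3.58.1), other filters and scalings, the compared libraries alone, and each library left out. The fit was tested on simulated data. The ratio to pan-endothelial counts, with 0.5 count added before log2, used exact permutation tests. The members and gene lists were chosen with earlier results of these data known. Named pathway genes are the 12 called with the smallest p in an AML comparison, and others are named to complete a count. A gene of the fibrinolysis list is not reported here and is left out of its counts. Annotation is GRCm38 (GENCODE M21), and promoters are from RefSeq. The interval of the Plau ratio and the floors (3 counts) cover counting error only, while that of Thbd in marrow comes from the edgeR SE.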

Additional observations from a re-analysis of the deposited data

Results flagged for a closer look

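The AML change differed between marrow and lung by edgeR's test of the difference itself for several named genes; values are log2 differences, marrow minus lung. Among the members the difference was 2.48 for Thbd and 5.04 for Procr (adjusted p = 0.0160 and 0.0117). Of the other genes, S100a10 (3.15), Anxa2 (3.10), Serpine2 (1.87) and Plgrkt (1.16) of fibrinolysis and the anticoagulants Pros1 (2.12) and Anxa5 (2.18) had the higher change in marrow, as had Kng1 (4.01) and Entpd1 (2.63). Ptgs1 (-3.68), F2 (-7.75) and Ptgis (-1.08) had the lower one. The value for F2 depends on the prior count, since BM-AML libraries had no count of it, and is no bound. Ptgis passed narrowly (adjusted p = 0.0466) and did not pass with DESeq2 size factors (-1.05, adjusted p = 0.0619) or without any of 10 of the 12 libraries (-1.21 to -0.74). Serpine2 was lost without Lung-AML replicate 3 (1.72, adjusted p = 0.0501), and Entpd1 without BM-Ctrl replicate 2 (2.52, adjusted p = 0.0504) and was 1.49 without BM-AML replicate 3. Pericyte and smooth muscle markers also had a higher change in marrow for 9 of 10 genes, and their part in these differences was not tested. With 3 libraries a group, single libraries were not screened for outliers.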

How the results depend on the processing

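Of the values for single genes under an alternative, 975 kept direction and side of the threshold, 70 fell short of it, 17 came to pass it and 6 reversed. Of the counts, 272 stayed within 1.5 times the main count and 48 did not. Reversals were all among values near 0 that did not pass: Thbd in marrow without BM-AML replicate 2 (-0.09), BM-Ctrl replicate 1 (-0.0939) or BM-Ctrl replicate 3 (-0.03), where the highest value on leaving out a library was 0.377, without BM-Ctrl replicate 2, Tfpi in lung without Lung-Ctrl replicate 1 (-0.0846; highest on leaving out a library 0.374), and the difference for Vwf without BM-AML replicate 2 (0.14) or Lung-AML replicate 2 (0.56; lowest on leaving out a library -1.79). No change of scaling reversed a member; library totals moved the median of all genes in marrow to 0.16, against -0.11 with TMM.

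In BM-AML against BM-Ctrl libraries 4263 genes were lower, against 2833 with a filter of 5 CPM, where fewer genes were tested, and 2543 with the marrow libraries alone. Members lower there numbered 2, against 1 with limma-voom, with no filter and with the marrow libraries alone (1 to 2 on leaving out a library). In Lung-AML against Lung-Ctrl libraries 212 genes were higher and 211 lower, against 719 and 913 with DESeq2, 1007 and 1275 with limma-voom and 545 and 694 with the lung libraries alone. Leaving out a library gave 50 to 147 higher and 21 to 185 lower. Members higher there numbered 0, against 1 with limma-voom, and members lower 1, against 2 with DESeq2 and limma-voom and 0 with no filter (0 to 1 on leaving out a library). For the difference of the changes 2925 genes were lower, against 1756 with library totals; limma-voom gave 1 member higher and 1 lower, against 2 and 0 (0 to 1 lower on leaving out a library). In BM-AML against Lung-AML libraries 4575 genes were lower, against 2817 with the 5 CPM filter, and 2 members were higher, against 1 with limma-voom (1 to 2 on leaving out a library). In BM-Ctrl against Lung-Ctrl libraries 1 member was higher, against 2 with DESeq2 and limma-voom and 0 with no filter (0 to 1 on leaving out a library). Except where a change in the genes or libraries tested is named, the cause was not tested.

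The replicate numbers are shared across groups but no label says they pair libraries. Same-numbered libraries had correlations of deviations from -0.162 to 0.183, 3 of 18 over 0.1, and 6 correlated best with their own number. With the replicate block 3267 genes were higher and 3986 lower in BM-AML libraries, 144 higher and 187 lower in Lung-AML libraries, and the members' counts were the same in all 5 comparisons. Plau, F2 and F8 had 0 counts in some libraries. For F8 this was BM-AML replicate 3, with 24.8 M library counts, while BM-AML replicate 1, with 12.8 M, had 32 counts of F8. The part of depth in these zeros was not tested.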
